A study of Mus musculus with 6 samples.

Results

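A set of 10 genes of the epithelial-mesenchymal transition was followed in 4T1 cells, a mouse mammary carcinoma line that serves as a triple-negative breast cancer model. They were chosen as a list by symbol: Snai1, Snai2, Zeb1, Zeb2, Twist1, Vim, Cdh2, Esrp1, Grhl2 and Ovol1. All 10 of 10 were found among the 28418 genes of the deposited tables. The cells had been grown for 35 passages with 0 nM or with 100 nM perfluorooctane sulfonate (PFOS), a fluorinated surfactant that persists in the environment, and 3 libraries of poly(A) RNA were sequenced from each group. No other treatment is labelled in either group, both are from the same line, and the vehicle given to the 0 nM cells is not given in the sources used here. Whether the 3 libraries per group are separate cultures is not labelled. Each p-value thus covers only the spread among these samples, and that spread may be technical. Levels are in FPKM, fragment numbers divided by the length of the transcript and the size of the library, so levels of different genes can be set side by side.

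In an epithelial-mesenchymal transition, cells joined in a sheet loosen their contacts and take on a migratory, fibroblast-like form. The zinc finger proteins of the Snail family (Snai1, Snai2) and Zeb family (Zeb1, Zeb2) bind short E-box sequences and repress epithelial genes such as Cdh1, which encodes E-cadherin, and the helix-loop-helix protein Twist1 acts with them. Vimentin (Vim), an intermediate filament protein, and N-cadherin (Cdh2) are characteristic of the mesenchymal form. Against them stand Grhl2 and Ovol1, transcription factors that uphold epithelial genes or repress mesenchymal ones, and Esrp1, an RNA-binding protein that sets epithelial splicing. The microRNAs of the miR-200 family restrain both Zeb genes.

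The E-box is shown first because it is the sequence through which the repressors of the list act. It was searched as CAGGTG and its reverse complement CACCTG in the 250 bases before each RefSeq start site (build GRCm38.p6, both strands by the use of both forms). RefSeq windows were matched for 4 members, Snai1, Zeb2, Twist1 and Vim. An E-box was present in 1 of these 4, in 10 of 14 matched epithelial genes known to be repressed in the transition, in 0 of 11 matched mesenchymal genes, and in 19.4% of all 27025 genes with a window (17.2% of all 32851 windows). Some windows lie in exons that GENCODE M21 gives to the same gene, so they are not all upstream sequence. This holds for all 250 bases of the Vim window. Among the epithelial genes, the E-box windows of Cldn7 (221 bases), Ocln (155) and Krt8 (140) lie largely in such exons. Those of Snai1 and Epcam hold 0 such bases. Of the members, Snai1 carried 1 E-box, whose first base lies 126 bases before the start site. Of the epithelial genes, Epcam, an adhesion protein gene, carried 2, at 187 and 19 bases before its start. The windows below are written 5′ to 3′ in lower case with the E-box in capitals. Zeb2, of whose 4 windows the outermost is given, and Twist1 are shown as members whose windows do not hold these letters. A match is a description and not a measured binding site.
Snai1, chr2:167537945-167538194, plus strand: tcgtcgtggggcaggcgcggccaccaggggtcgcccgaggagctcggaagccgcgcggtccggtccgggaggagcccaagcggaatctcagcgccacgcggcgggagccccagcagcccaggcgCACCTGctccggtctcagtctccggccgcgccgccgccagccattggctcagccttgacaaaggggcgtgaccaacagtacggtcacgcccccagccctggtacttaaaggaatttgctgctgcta
Epcam, chr17:87635729-87635978, plus strand: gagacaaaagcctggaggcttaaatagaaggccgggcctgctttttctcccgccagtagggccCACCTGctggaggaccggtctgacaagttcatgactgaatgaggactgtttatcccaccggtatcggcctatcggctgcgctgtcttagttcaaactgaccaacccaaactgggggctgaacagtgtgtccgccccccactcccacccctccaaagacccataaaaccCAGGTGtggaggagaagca
Zeb2, chr2:45117443-45117692, minus strand: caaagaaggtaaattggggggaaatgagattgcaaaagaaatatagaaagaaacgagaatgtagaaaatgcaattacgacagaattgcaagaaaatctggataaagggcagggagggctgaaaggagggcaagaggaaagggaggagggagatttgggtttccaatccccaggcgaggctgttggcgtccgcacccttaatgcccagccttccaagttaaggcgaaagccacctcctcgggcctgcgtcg
Twist1, chr12:33957421-33957670, plus strand: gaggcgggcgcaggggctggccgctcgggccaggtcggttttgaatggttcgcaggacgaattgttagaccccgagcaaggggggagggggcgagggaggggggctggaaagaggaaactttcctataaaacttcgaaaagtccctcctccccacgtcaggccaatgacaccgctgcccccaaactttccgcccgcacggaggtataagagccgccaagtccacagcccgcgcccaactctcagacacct

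**Figure D1:**
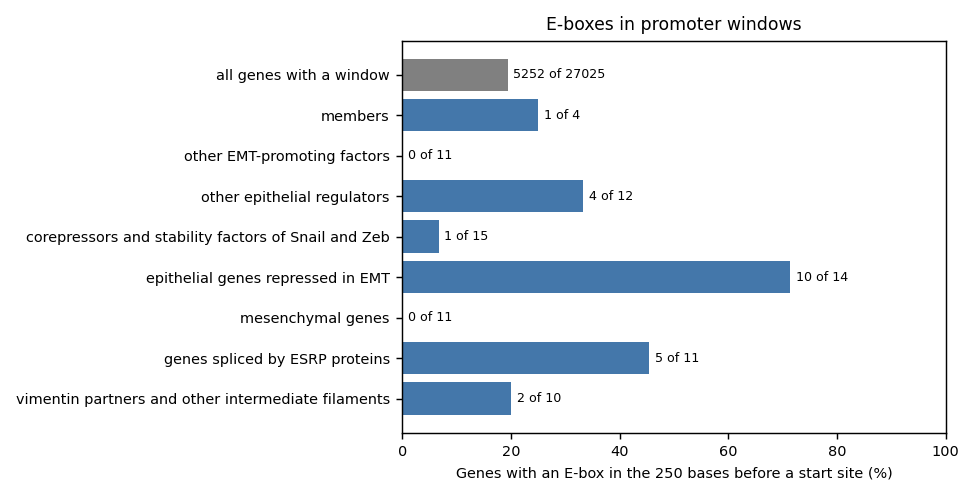
Share of genes (percent, horizontal axis) with at least 1 E-box in the 250 bases before a RefSeq start site, for the listed genes, for each list of related genes and for all genes with a window, with the counts beside each bar. The epithelial genes repressed in the transition stand at 10 of 14 and all genes at 5252 of 27025.

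The sequences that link the miR-200 family to Zeb2 are shown because Zeb2 was the Zeb gene with the higher level in every library. Mature sequences are from RefSeq, with the seed, bases 2 to 8, in capitals. The 5 family members fall into 2 seed groups.
miR-200a-3p: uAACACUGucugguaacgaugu
miR-141-3p: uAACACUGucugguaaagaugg
miR-200b-3p: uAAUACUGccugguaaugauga
miR-200c-3p: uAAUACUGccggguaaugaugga
miR-429-3p: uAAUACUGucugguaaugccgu
The longest annotated Zeb2 3′ untranslated region (4941 bases, GENCODE M21) held 5 matches to the seed of miR-200b, miR-200c and miR-429 and 4 to that of miR-200a and miR-141, and that of Zeb1 (2401 bases) also held 5 and 4. The following Zeb2 stretches carry the 2 matches nearest the stop codon for each seed, in capitals, and start 15 bases before the match. The microRNAs themselves were not measured by these poly(A) libraries, so no relation between them and the Zeb levels was tested.
Zeb2, chr2:44988356-44988379, minus strand: tgcaaaaattttgtaCAGTGTTaa
Zeb2, chr2:44987824-44987847, minus strand: agtgccatccttgtaCAGTGTTca
Zeb2, chr2:44988172-44988195, minus strand: cgcactaccatacatCAGTATTtt
Zeb2, chr2:44988107-44988130, minus strand: cgcactacagtgcatCAGTATTac

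Library sums lay between 306716 and 309381 FPKM and 21042 to 21591 genes were above 0. The cells carried the epithelial markers of a mammary carcinoma. The summed level of 8 such markers had a median of 774 FPKM at 0 nM and of 853 FPKM at 100 nM, while endothelial markers summed to at most 0.42 FPKM in any library. Of the receptors that define triple-negative tumours, Esr1 stood at 0.26 to 0.45 FPKM, and Erbb2 at 13.24 to 13.95 FPKM. Replicate 3 at 100 nM stood apart. It held the T cell granule gene Gzmb at 14.94 FPKM (at most 0.05 in the other 5 libraries) and the pan-leukocyte gene Ptprc at 1.31 FPKM (0.06 to 0.23 in the others). Myeloid genes were also highest there, with Cd14 at 65.16 FPKM (8.41 to 24.14 in the others), Tyrobp at 17.19 FPKM and Laptm5 at 11.99 FPKM. Lyz2 was the exception, at 185 FPKM there and higher in replicate 2 at 100 nM. Fibroblast markers were mixed there. Dcn stood at 2.26 FPKM (at most 0.05 in the others) and Thy1 at 1.35 FPKM (at most 0.02). Thy1 is not particular to fibroblasts, and the same library held the T cell gene Cd3e at 0.66 FPKM (0 in the others). Col1a1 (1.59 FPKM) and Pdgfrb (0.06 FPKM) lay within the range of the others, and Acta2 was at its lowest (0.12 FPKM). Summed fibroblast markers, Thy1 included, were 13.09 FPKM there and 7.16 to 8.74 FPKM in the others. Summed leukocyte markers ranged from 158 to 191 FPKM at 0 nM and from 146 to 351 FPKM at 100 nM, and most of that sum was Lyz2 in all 6 libraries. Replicate 2 at 100 nM also lay above the 0 nM libraries in that sum, at 293 FPKM. Its myeloid genes were mixed. Lyz2 at 240 FPKM, Tyrobp at 15.02 FPKM (6.74 to 9.3 at 0 nM) and Laptm5 at 6.86 FPKM (3.27 to 3.69 at 0 nM) were higher. Csf1r and Itgam also lay above the 0 nM libraries. Cd14, at 8.41 FPKM, lay below them (13.01 to 24.14 FPKM), and Adgre1 and Fcer1g lay within their range. The T cell genes Cd3e and Gzmb were listed at 0 in replicate 2. Among the members, values without replicate 3 at 100 nM are given below for Zeb2, Zeb1, Vim, Cdh2, Grhl2 and Esrp1. Values without replicate 2 at 100 nM are given for Vim.

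At 0 nM, Vim was by far the most abundant of the 10 transcripts, and among the repressors Twist1 and Snai1 led, with Zeb2 low and Zeb1 and Snai2 close to 0. In order, mean levels at 0 nM were 563 FPKM for Vim, 20.8 for Twist1, 7.22 for Snai1, 3.22 for Grhl2, 2.51 for Zeb2, 2.12 for Esrp1, 1.25 for Ovol1, 0.957 for Cdh2, 0.0733 for Zeb1 and 0.03 for Snai2. Neighbours in that order did not overlap over the 3 libraries, except Zeb1 and Snai2. At 100 nM the order was the same but for Esrp1, at 2.48 FPKM, which lay above Zeb2, at 2.24 FPKM, with no overlap between them. At 100 nM the libraries of Cdh2 and Zeb1 overlapped, as did those of Zeb1 and Snai2. Vim lay at the 99.8 percentile of mean level among all genes above 0, Twist1 at 90.4 and Snai1 at 77.5.

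**Figure D2:**
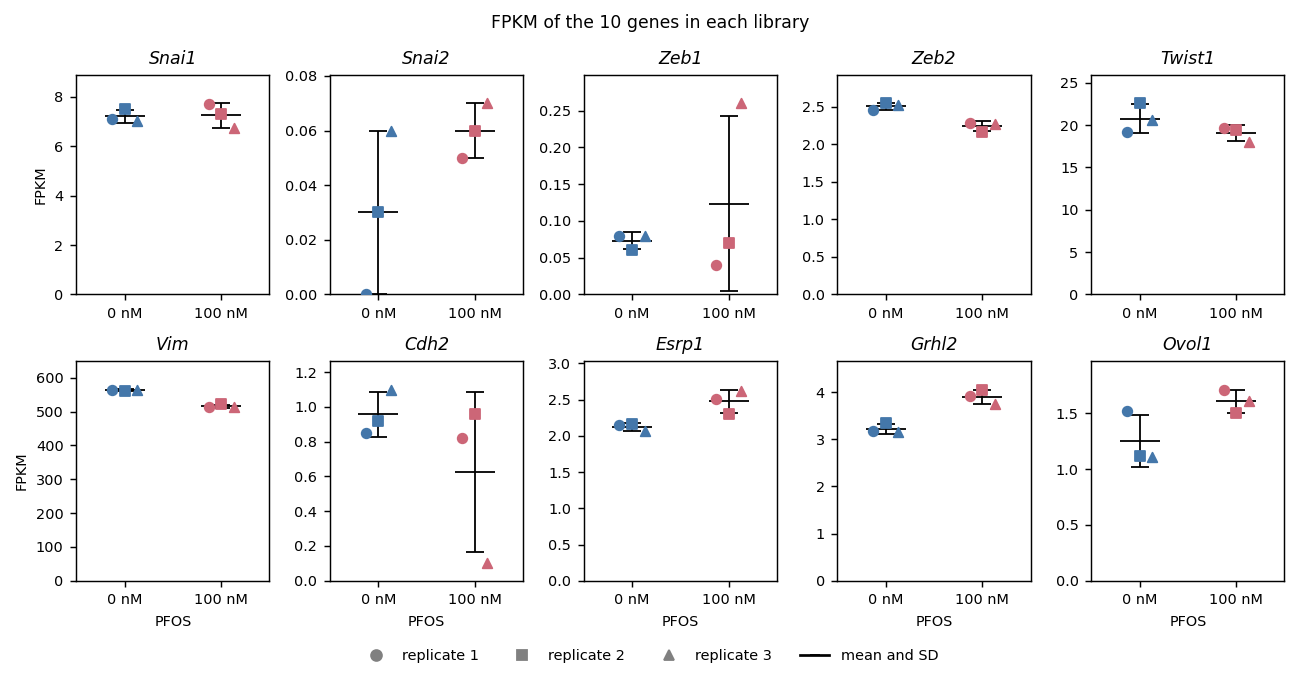
FPKM (vertical axis, from 0, a separate scale per gene) of each of the 10 genes in the 3 libraries at 0 nM and the 3 at 100 nM PFOS. Symbols mark the replicates and black bars the mean with SD. For Vim, Zeb2, Esrp1 and Grhl2 the 2 groups do not overlap, and for Cdh2 replicate 3 at 100 nM stands at 0.1 FPKM against 0.82 to 1.1 FPKM in the other 5 libraries.

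The comparison of 100 nM with 0 nM was made for all genes with limma on log2(FPKM + 1), a scale that understates the change of low genes. Only genes whose mean over the 6 libraries reached 1 FPKM were tested. The threshold for a call was an adjusted p (Benjamini-Hochberg) under 0.05. Of the 10 genes, 7 passed that filter, and Snai2, Zeb1 and Cdh2 lay under it. Of the 7, 1 was called, Vim, which fell, where 4.15% of the 11741 genes tested were called (1.69% higher and 2.46% lower). The calls over all genes were 198 higher and 289 lower, and 82 higher and 231 lower under upper-quartile scaling. At an unadjusted p under 0.05 there were 5 of 7, against 20.7% of all genes tested. For 4 of the 7 the 2 groups were fully separate, as for 26.9% of all genes tested. These were Esrp1 and Grhl2 on the higher side (13.7% of all) and Vim and Zeb2 on the lower side (13.3% of all).

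**Figure D3:**
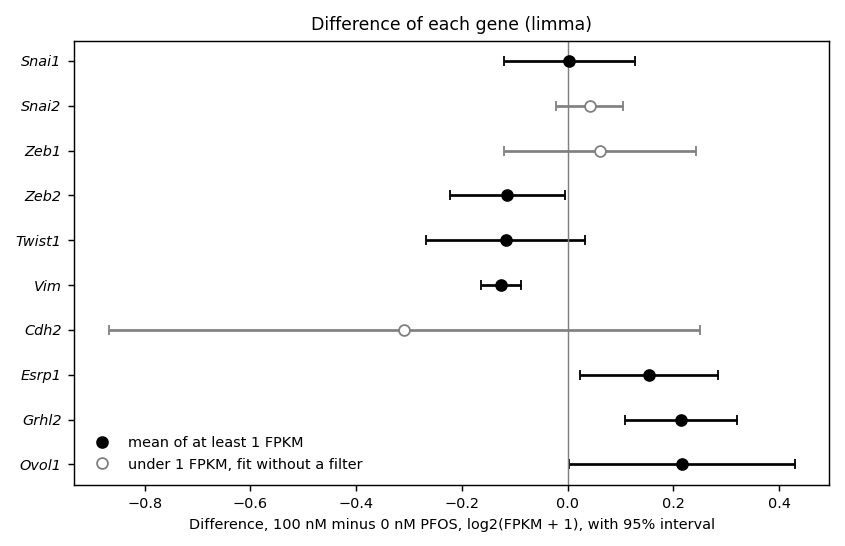
Difference of each gene between 100 nM and 0 nM PFOS on the log2(FPKM + 1) scale (horizontal axis), with its 95% interval from limma. Filled points had a mean of at least 1 FPKM, and open points are from a fit without a filter. Vim lies at -0.13 with an interval from -0.16 to -0.09, and the interval of Snai1 spans 0.

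Snai1, the Snail repressor whose protein is known to be short-lived (ENSMUSG00000042821, chromosome 2, 167538195 to 167542814), stood at 7.10, 7.52 and 7.04 FPKM in the 0 nM libraries and at 7.72, 7.29 and 6.73 FPKM in the 100 nM libraries. The highest and the lowest of the 6 values were both at 100 nM. On the log2(FPKM + 1) scale it differed by 0.00 ± 0.05 (SE), with a 95% interval from -0.12 to 0.13 and a limma adjusted p of 0.981. Its sign turned with the scaling and with the library left out, from -0.04 to 0.05. Snai2, the Slug repressor (chromosome 16, 14705852 to 14709385), was listed at 0, 0.03 and 0.06 FPKM at 0 nM and at 0.05, 0.06 and 0.07 FPKM at 100 nM. With all genes above 0 tested, its difference was 0.04 (95% interval -0.02 to 0.10, limma adjusted p = 0.641). Of 29 neighbouring protein-coding genes within 2.5 Mb of Snai2, 27 had a lower mean at 100 nM and 6 were called lower, with a median difference of -0.16. Snai2 itself lay too close to 0 for a shift of that size to be detectable.

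Zeb2, a zinc finger repressor of Cdh1 (ENSMUSG00000026872, chromosome 2, 44983632 to 45117395), stood at 2.46, 2.55 and 2.52 FPKM at 0 nM and at 2.29, 2.17 and 2.27 FPKM at 100 nM. Every 100 nM value lay under every 0 nM value. The mean was 2.51 ± 0.0458 FPKM at 0 nM and 2.24 ± 0.0643 FPKM at 100 nM (SD, n = 3 each). The difference of -0.11 ± 0.05 (SE) did not pass the test (limma adjusted p = 0.222), with a 95% interval from -0.22 to -0.01. Without replicate 3 at 100 nM it was -0.12 (limma adjusted p = 0.288). The antisense gene Zeb2os, which overlaps Zeb2, stood at 0.12 to 0.21 FPKM, and whether strand was used in quantification is not given in the sources used here. Zeb1 (ENSMUSG00000024238, chromosome 18, 5591860 to 5775467) stood at 0.08, 0.06 and 0.08 FPKM at 0 nM and at 0.04, 0.07 and 0.26 FPKM at 100 nM. The highest value, 0.26, was in the library with the T cell transcripts and Dcn, whose part in it was not tested. In the fit without a filter the Zeb1 difference was 0.06 (95% interval -0.12 to 0.24, limma adjusted p = 0.771). Without that library it was -0.02 (limma adjusted p = 0.679).

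Twist1, the helix-loop-helix factor (ENSMUSG00000035799, chromosome 12, 33957671 to 33959829), stood at 19.18, 22.58 and 20.55 FPKM at 0 nM and at 19.70, 19.42 and 18.00 FPKM at 100 nM. The groups overlapped, since replicate 1 at 0 nM lay below both replicates 1 and 2 at 100 nM. The means were 20.8 ± 1.71 and 19.04 ± 0.911 FPKM (SD, n = 3 each), and the difference of -0.12 ± 0.06 (SE) did not pass (limma adjusted p = 0.347, 95% interval -0.27 to 0.03). It ranged from -0.17 without replicate 1 at 0 nM to -0.06 without replicate 2 at 0 nM. Of 15 neighbouring genes, 12 had a higher mean at 100 nM.

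Vim, the vimentin gene (ENSMUSG00000026728, chromosome 2, 13573927 to 13582826), fell at 100 nM by a small amount with little spread. It stood at 565, 560 and 564 FPKM at 0 nM and at 514, 521 and 512 FPKM at 100 nM. The groups lay far apart relative to the spread within each. The means were 563 ± 2.69 and 516 ± 4.65 FPKM (SD, n = 3 each), a ratio of 0.916. The log2(FPKM + 1) difference was -0.13 ± 0.02 (SE; limma adjusted p = 0.0121), and 3 of 3 libraries at 100 nM lay below every 0 nM library. Without replicate 3 at 100 nM it was -0.12 (limma adjusted p = 0.0274), about as large as with it, and without replicate 2 at 100 nM it was -0.13 (limma adjusted p = 0.0412). The call was lost without any 1 of the 0 nM libraries (limma adjusted p = 0.0649, 0.0519 and 0.0619 without replicates 1, 2 and 3), under quantile normalization (0.0673), without a trend (0.0651), with no filter (0.0861) and without replicate 3 of both groups (0.0937), each time with the same sign. Of 13 neighbouring genes 8 were lower and 5 higher in mean, with a median difference of -0.00. The 3 protein-coding genes with the most similar profile over the 6 libraries were Hdac3 (0.00640), Flywch1 (0.00855) and Ppard (0.0101), by root mean square distance of centred log2(FPKM + 1) values. Each was called lower as well, which follows largely from choosing them for a profile like that of Vim. Of the 39 neighbours of Hdac3 on chromosome 18, 35 had a lower mean and 7 were called lower, with a median difference of -0.13, the same as that of Hdac3 itself. Hdac3 went from 19.6 to 17.8 FPKM, Flywch1 from 14.3 to 13.04 and Ppard from 12.7 to 11.5.

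Cdh2, which encodes N-cadherin (ENSMUSG00000024304, chromosome 18, 16588877 to 16809246), stood at 0.85, 0.92 and 1.10 FPKM at 0 nM and at 0.82, 0.96 and 0.10 FPKM at 100 nM. Only replicate 3 at 100 nM was low, and the other 2 libraries at 100 nM lay within or next to the 0 nM range. Cadherin-11 (Cdh11), another mesenchymal cadherin gene, was at 0.01 FPKM in the same library and at 0.20 to 0.26 FPKM in the other 5; it was named after its values were seen. In the fit without a filter the Cdh2 difference was -0.31 (95% interval -0.87 to 0.25, limma adjusted p = 0.725). Without that library it was -0.05 (limma adjusted p = 0.824). The E-cadherin gene Cdh1 (chromosome 8, 106603351 to 106670246) rose at 100 nM. Its level was 54.1 ± 0.271 FPKM in the 0 nM group and 66.2 ± 1.59 FPKM in the 100 nM group (SD, n = 3; limma adjusted p = 0.00323). The ratio of Cdh1 to Cdh2 FPKM was 63.6, 59.1 and 48.9 at 0 nM and 82.1, 69.7 and 644 at 100 nM. All 3 ratios at 100 nM lay above all 3 at 0 nM (exact two-sided permutation test, p = 0.10, the smallest this design allows). The mean difference was 208 with all libraries and 18.7 without replicate 3 at 100 nM, so its size rests on the low Cdh2 value of that library.

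Grhl2, Esrp1 and Ovol1, the epithelial side of the list, had higher means at 100 nM, and none of them passed the test over all genes. Grhl2, a Grainyhead-like transcription factor that upholds epithelial genes (ENSMUSG00000022286, chromosome 15, 37233036 to 37363569), stood at 3.17, 3.35 and 3.15 FPKM at 0 nM and at 3.91, 4.05 and 3.74 FPKM at 100 nM. The groups did not overlap. Its means were 3.22 ± 0.110 and 3.90 ± 0.155 FPKM (SD, n = 3 each), a ratio of 1.21, and the difference was 0.21 ± 0.04 (SE) with a limma adjusted p of 0.0515 and a 95% interval from 0.11 to 0.32. It was called when only protein-coding genes were tested (limma adjusted p = 0.0366), with robust moderation (0.0483) and without a trend (0.0491), and over all alternatives the adjusted p lay between 0.0366 and 0.173. Without replicate 3 at 100 nM the difference was 0.24 (limma adjusted p = 0.0737). Antisense gene Gm16136, inside Grhl2, stood at 0.33 to 0.71 FPKM.

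Esrp1, the splicing regulator (ENSMUSG00000040728, chromosome 4, 11331933 to 11386783), stood at 2.15, 2.16 and 2.06 FPKM at 0 nM and at 2.51, 2.30 and 2.62 FPKM at 100 nM. The groups did not overlap, and replicate 3 at 100 nM was the highest. The means were 2.12 ± 0.0551 and 2.48 ± 0.163 FPKM (SD, n = 3 each), and the difference of 0.15 ± 0.05 (SE) did not pass (limma adjusted p = 0.176, 95% interval 0.02 to 0.28). Without replicate 3 at 100 nM it was 0.12 (limma adjusted p = 0.318). Ovol1, a zinc finger repressor of mesenchymal genes (ENSMUSG00000024922, chromosome 19, 5549136 to 5560646), stood at 1.52, 1.12 and 1.11 FPKM at 0 nM and at 1.71, 1.5 and 1.61 FPKM at 100 nM. The groups overlapped by 1 library, replicate 1 at 0 nM. Its difference of 0.22 ± 0.09 (SE) did not pass (limma adjusted p = 0.236, 95% interval 0.00 to 0.43), and it was 0.30 without that library. Ovol1 shares 20.5% of its 31-base words with transcripts of other genes, mainly the pseudogene Gm31166 on the other strand, which stood at no more than 0.10 FPKM. For the other 9 genes the shared part was at most 3.31%.

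**Figure D4:**
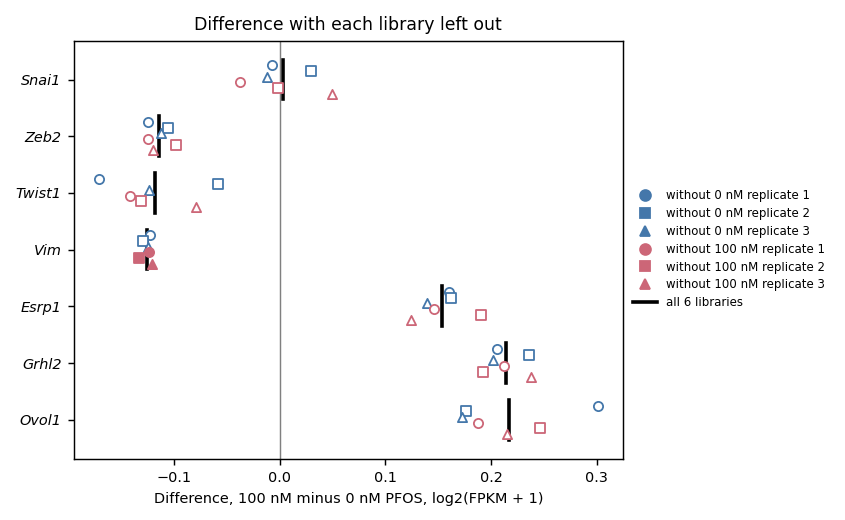
Difference between 100 nM and 0 nM PFOS on the log2(FPKM + 1) scale (horizontal axis) of the 7 tested genes with each library left out in turn. Black ticks are the values with all 6 libraries, and filled symbols pass the limma test at an adjusted p under 0.05. Filled symbols appear for Vim only, when a 100 nM library was left out, and Snai1 changes sign.

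Relatives of these epithelial factors were measured in a wider list of 18 epithelial regulators, of which 8 passed the filter. None was called by limma, against 4.15% of all genes tested, and 4 had a higher and 4 a lower mean. The median difference was -0.01, against 0.01 for all genes tested. At an unadjusted p under 0.05 there was 1 of 8, against 20.7% of all genes tested. The 1 gene was Foxa1, a pioneer factor of luminal epithelium, at 1.41, 1.32 and 1.51 FPKM at 0 nM and at 1.03, 1.04 and 0.81 FPKM at 100 nM. Its groups did not overlap, on the lower side, and its difference was -0.30 (limma adjusted p = 0.0873). Klf4, a zinc finger factor of epithelial differentiation, was also separate on the lower side, with means of 2.47 and 1.95 FPKM (limma adjusted p = 0.324). Esrp2, the paralogue of Esrp1, stood at 9.03, 8.56 and 9.40 FPKM at 0 nM and at 10.36, 9.97 and 9.19 FPKM at 100 nM, so its groups overlapped. Every Esrp2 value lay above every Esrp1 value. Ovol2, the paralogue of Ovol1, lay under the filter at 0.06, 0.14 and 0.08 FPKM at 0 nM and at 0.30, 0.34 and 0.38 FPKM at 100 nM. The Ovol2 groups did not overlap. In the fit without a filter its difference was 0.29 (95% interval 0.19 to 0.40, limma adjusted p = 0.0548), and without replicate 3 at 100 nM it was 0.27 (limma adjusted p = 0.134). Foxa1, Klf4, Esrp2 and Ovol2 were named after their values were seen.

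Of 18 further transcription factors known to promote the transition, 13 passed the filter. By limma none was called in either direction, against 4.15% of all genes tested. At an unadjusted p under 0.05 there were 4 of 13, against 20.7% of all genes tested, and the median difference was 0.02. Of 19 corepressors and stability factors of the Snail and Zeb proteins, all 19 passed the filter and 2 fell, where 2.46% of all genes tested were called lower, with a median difference of -0.03. They were Gsk3b, a kinase that marks Snai1 protein for degradation, from 7.53 to 5.87 FPKM (limma adjusted p = 0.00450), and Fbxo45, a ubiquitin ligase subunit, from 9.35 to 7.15 FPKM (limma adjusted p = 0.0125). The Fbxo45 call was lost without replicate 2 at 0 nM (0.0623), replicate 3 at 0 nM (0.0619) or replicate 1 at 100 nM (0.0511). Both lie on chromosome 16 among genes that were lower at 100 nM. Of the 24 neighbours of Gsk3b 22 had a lower mean and 12 were called, and of the 33 neighbours of Fbxo45 32 had a lower mean and 23 were called. Of 15 vimentin partners and other intermediate filament genes, 10 passed the filter and 1 fell, against the same 2.46%, the kinase gene Pak2, from 35.6 to 29.0 FPKM (limma adjusted p = 0.00554), in the same stretch of chromosome 16 as Fbxo45, with a lower mean for 32 of its 33 neighbours.

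Epithelial genes known to be repressed in the transition had 19 of 25 members past the filter. Of these 3 rose and 0 fell, where 1.69% of all genes tested were called higher, with a median difference of 0.06. Besides Cdh1, the desmosome gene Dsp rose from 7.19 to 9.18 FPKM (limma adjusted p = 0.0125). Of the 10 genes of this list with an E-box in the searched window 8 passed the filter, 4 with a higher and 4 with a lower mean. By limma 0 of these 8 were called, against 4.15% of all genes tested, with a median difference of 0.00. The groups were separate on the higher side for 2 of the 8, as for 13.7% of all genes tested. These were Epcam and the keratin gene Krt18, both named after their values were seen. Epcam stood at 25.6, 26.04 and 25.1 FPKM at 0 nM and at 35.09, 30.95 and 29.0 FPKM at 100 nM (limma adjusted p = 0.0606), and Krt18 had means of 277 and 298 FPKM (limma adjusted p = 0.0861). The 4 genes whose window held none, Dsp among them, all had a higher mean, as had 6175 of the 11741 genes tested, and 1 was called. The 2 sets are small and were not tested against each other. Cdh1 was not matched to a window. Of 24 mesenchymal genes 13 passed the filter, 2 rose and 0 fell, against the same 1.69%, with a median difference of 0.00. The fibrillar collagen gene Col5a1 went from 6.34 to 7.89 FPKM (limma adjusted p = 0.00731), in the direction opposite to that of Vim. Of 12 genes whose transcripts are known to be spliced by ESRP proteins, 11 passed the filter and 1 fell, against 2.46% of all genes, the growth factor receptor gene Fgfr2, from 5.00 to 3.87 FPKM (limma adjusted p = 0.0171), and the deposited values are per gene and do not separate its epithelial and mesenchymal splice forms. Leaving out 1 library ended some of these calls. The highest limma adjusted p was then 0.0623 for Dsp (without replicate 2 at 0 nM; also above 0.05 without replicate 1 of either group or replicate 2 at 100 nM) and 0.0787 for Fgfr2 (without replicate 2 at 0 nM; also without replicates 1 or 3 at 0 nM or 2 at 100 nM). Over 20 alternatives the count of called genes ranged from 1 to 5 higher among the epithelial genes, from 0 to 4 higher among the mesenchymal genes, and from 0 to 2 lower each among the corepressors and the ESRP targets, and from 0 to 1 lower among the vimentin partners, where the Pak2 call was lost without replicate 3 of both groups (limma adjusted p = 0.0528).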

How the data were processed

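The deposited values are FPKM per gene, written to 2 decimals by the authors, in 1 table for each of the 6 libraries. The tools fastp, HISAT2 and StringTie, and both GRCh38 and mm10 as builds, appear in the submitters' processing notes. The sources used here give no versions, annotation or strand setting. Per the labels' protocols, the libraries were strand-marked with dUTP. Symbols came from GENCODE M21 (GRCm38), in which all 10 genes have the same coordinates as in the files. No depth is held in FPKM, so precision is known only from the replicates.

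limma 3.58.1 (R 4.3.3) with a trend was fitted to log2(FPKM + 1) for the 11741 genes whose mean reached 1 FPKM, two-sided, with Benjamini-Hochberg adjustment over all of them. The script was tested on simulated data. The members and lists were chosen with earlier results of these data known. Besides the members, the text names from each list the 2 called genes lowest in adjusted p, and the 3 protein-coding genes nearest to each called member; 1 gene so chosen is not reported here. Genes within 2.5 Mb of a start count as neighbours. Promoter and microRNA sequences are RefSeq's (GRCm38.p6). Proteins were not analysed here. The alternatives covered scaling, pseudocount, filter, gene type, moderation, a block on replicate number and libraries left out.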

Additional observations from a re-analysis of the deposited data

How the results depend on the processing

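In the main fit limma called 487 genes. The total called was 313 under upper-quartile scaling, 314 with a filter at a mean of 0.1 FPKM, 204 with no filter and 294 without a trend. It was 74 without replicate 3 of both groups and 122 to 289 when 1 library was left out. It rose to 653 with protein-coding genes only, 593 with a filter at a mean of 5 FPKM and 548 with robust moderation. The count of listed genes called, 1 at first, was 0 under quantile normalization, with no filter and without replicate 3 of both groups, 2 with protein-coding genes only and with robust moderation, and 0 to 1 when 1 library was left out. With the replicate number as a block, 58 genes and 0 of the 10 listed genes were called (Vim at a limma adjusted p of 0.0867). The block also ended the calls of Col5a1, Dsp, Fbxo45, Fgfr2 and Gsk3b (0.0561 to 0.0950), and those of Cdh1 (0.0462) and Pak2 (0.0493) held. Without replicate 3 of both groups the Pak2 call was lost (0.0528). Same-numbered libraries did not deviate together across genes (correlations of -0.03, -0.05 and 0.01), so the numbers are not taken to pair the samples. The Cdh1 to Cdh2 ratio stayed higher at 100 nM in all its alternatives. The mean difference was 15.7 for FPKM + 1 and 18.7 to 306 when 1 library was left out. With permutation within the replicate block it was 208 (exact two-sided permutation test, p = 0.25, the smallest that this blocked test allows). Snai1 was at -0.00215 under median-of-ratios scaling, -0.0129 under upper-quartile scaling, -0.00225 under quantile normalization, and -0.0377 to 0.0492 when 1 library was left out. Zeb1 was at -0.0249 with no filter and without replicate 3 at 100 nM, a setting chosen after seeing the data. The cause of these changes was not tested. Zeb2, Twist1, Vim, Esrp1, Grhl2 and Ovol1 kept their sign in every alternative run. A ratio of Snai1 to Snai2 was not computed, since Snai2 was listed at 0 in 1 library.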
